A study of Mus musculus with 30 samples.

Results

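Akkermansia was followed in the feces of 30 female C57BL/6 mice by sequencing of the bacterial 16S rRNA gene. The unit counted was the amplicon sequence variant (ASV), a distinct 16S sequence left after the authors' read cleaning. Every ASV whose deposited taxonomy names the genus Akkermansia was taken. This rule found 141 rows in the authors' filtered count table, of which 5 held counts in these mice and 136 were at 0 in every mouse. The 5 ASVs compare with 12980 ASVs that held counts in the whole series, and all 5 were assigned to the species Akkermansia muciniphila. Beyond Akkermansia, the phylum Verrucomicrobia held 1 other ASV, of the genus DA101, with 6 counts in model mouse 2.

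The mice fell into 5 groups of 6, and their age was labelled as 6 weeks. The methods give this age for the mice as purchased. Stool was taken when treatment ended, so the mice were older at sampling. The labels give the strain as C57BL/6 and the methods as C57BL/6J. Control mice received a normal diet and saline by gavage. Model mice received a high-fructose (HFru) diet and saline. The salidroside, tyrosol and hydroxytyrosol groups received the HFru diet with 50 mg/kg salidroside, 23 mg/kg tyrosol or 26 mg/kg hydroxytyrosol, so that all 4 fructose-fed groups shared the diet. Tyrosol and hydroxytyrosol were dosed by molar conversion from salidroside. Each library came from the fresh stool of 1 mouse, collected in a cage without bedding. The labels give no cage or sequencing batch, so an effect of housing on the spread or on the groups cannot be told apart from diet or treatment. The libraries held from 41862 to 106609 counts, and every level below is the share of a library's counts unless another denominator is named.

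Akkermansia muciniphila is an anaerobic bacterium that lives in the mucus layer of the intestine. It uses mucin, the glycoprotein of mucus, as its source of carbon and nitrogen, and it is the usual member of the phylum Verrucomicrobia in the gut of mice and humans. Its fecal level has been much studied in obesity and metabolic syndrome. A share in feces is relative, since it falls when other bacteria take more of the counts, and it does not give the number of cells.

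Akkermansia had 0 counts in all 6 control mice and had counts in all 24 fructose-fed mice. A count of 0 allowed a share of up to 0.00358% to 0.00717% in a control mouse, taken as 3 counts of its total. The control mice were also at 0 in the authors' unfiltered table, where 432455 control counts together allowed a share of up to 0.000694%. The genus held 24863 counts in all, which was 0.952% of the counts of the series. Among fructose-fed mice its share ranged from 0.00307% to 5.36%, a 1742-fold range. In 10 of the 24 mice it was above 1%, and in 8 of them it was under 0.1%. Such limits and intervals cover counting error alone, because PCR copies were not marked by molecular identifiers.

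In the model group, the share was 5.36% in mouse 1, 0.0379% in mouse 2, 0.217% in mouse 3, 0.00307% in mouse 4, 0.0335% in mouse 5 and 0.751% in mouse 6. The first of these stood far above the other 5, and its 95% Wilson interval ran from 5.21% to 5.51%. Mouse 4 rested on 3 counts, with an interval from 0.00105% to 0.00904% that overlapped the limits of the control mice. Model mouse 1 alone held 81.8% of the 5745 Akkermansia counts of its group. The group mean was 1.07% ± 2.12 (SD, n = 6), and the median was 0.128%.

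In the salidroside group, the share was 1.88%, 0.603%, 0.0142%, 2.91%, 0.364% and 0.0447% in mice 1 to 6. The mean was 0.969% ± 1.17 (SD, n = 6) and the median 0.483%. In the tyrosol group, the share was 3.78%, 0.0333%, 1.01%, 2.11%, 0.238% and 0.0397% in mice 1 to 6. The mean was 1.20% ± 1.49 (SD, n = 6) and the median 0.623%. Both groups mixed mice above 1% with mice under 0.1%, and 2 salidroside mice and 3 tyrosol mice were above 1%.

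In the hydroxytyrosol group, the share was 0.333%, 0.0389%, 1.74%, 3.57%, 1.60% and 1.25% in mice 1 to 6. The mean was 1.42% ± 1.26 (SD, n = 6) and the median 1.42%. Here 4 of 6 mice were above 1% and 1 mouse was under 0.1%. The order of the medians was control, model, salidroside, tyrosol and hydroxytyrosol. In 5 of 6 model mice the share was above the limit of every control mouse, and the difference in means was smaller than the SD of the model group. No neighbouring pair among the 4 fructose-fed groups differed beyond its spread in the tests given below.

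**Figure D1:**
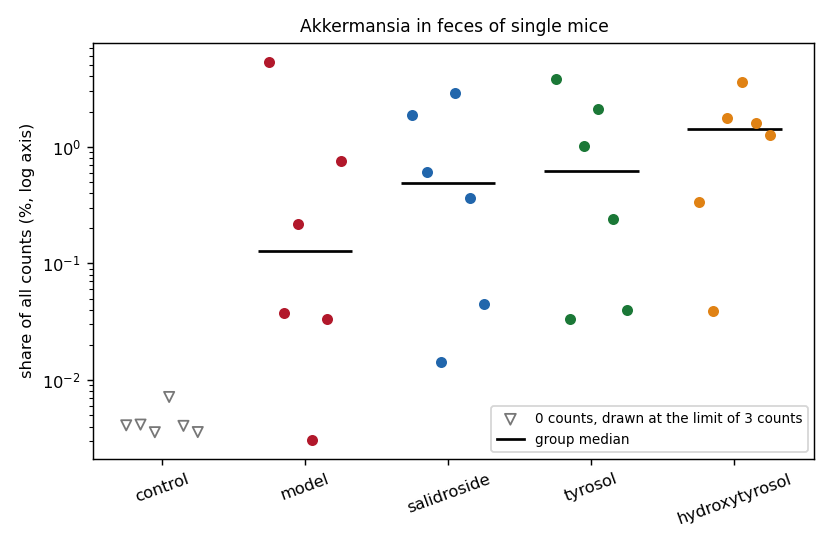
Share of Akkermansia in all counts of each mouse (%, log axis) by group, with 1 point per mouse and a bar at the group median. The 6 control mice had 0 counts and are drawn as open triangles at the limit of 3 counts, while the fructose-fed mice spread from 0.00307% to 5.36%.

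A single ASV made up nearly the whole genus. ASV_7902 held 23573 of the 24863 counts, or 94.8%. It was found in all 24 fructose-fed mice and held between 77.3% and 100% of the Akkermansia counts within a mouse (median 99.9%). No mouse had another Akkermansia ASV without it. In 12 of the 24 mice, it was the only Akkermansia ASV.

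ASV_62724 was next, with 1117 counts or 4.49% of the genus. It was found in 3 model, 3 salidroside and 4 tyrosol mice and in 0 hydroxytyrosol mice. Where present, it held from 2.78% to 22.7% of the genus within a mouse (median 11.2%). In the model group it took 6.47% of the genus in mouse 1, 22.7% in mouse 3 and 20% in mouse 5. In the salidroside group it took 16.1% in mouse 1, 10.2% in mouse 2 and 3.72% in mouse 5. In the tyrosol group it took 2.78% in mouse 1, 8.65% in mouse 3, 12.2% in mouse 4 and 12.6% in mouse 5. It was thus seen in mice with few genus counts, such as model mouse 5 with 35, as well as in model mouse 1 with 4698.

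In the 6 hydroxytyrosol mice, 0 of 7546 Akkermansia counts belonged to ASV_62724, which allows up to 0.0398% of the genus in the group as a whole. The 4 hydroxytyrosol mice with over 1000 genus counts allowed at most 0.273% each, under the lowest value of 2.78% seen where the ASV was present. Hydroxytyrosol mouse 1 allowed up to 0.888%, and mouse 2, with 28 genus counts, up to 10.7%. The ASV was also at 0 in salidroside mouse 4, which had 2493 genus counts and allowed up to 0.120%, and in model mouse 6, which had 754 and allowed up to 0.398%. In the other 6 mice without it outside the hydroxytyrosol group, 3 to 41 genus counts were read, and limits of 7.32% or more left its presence undecided. This pattern was noticed in the counts and was not tested. Whether the mice that carried the ASV shared a cage is not given.

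ASV_5788 held 163 counts, or 0.656% of the genus, in 4 mice. These were model mice 1 and 6 and tyrosol mice 1 and 4, where it took from 1.26% to 2.39% of the genus. All 4 mice had at least 754 genus counts. ASV_88531 had 5 counts, all in model mouse 1, and ASV_76054 had 5 counts, all in hydroxytyrosol mouse 4. Model mouse 1 thus carried 4 of the 5 ASVs, the most of any mouse.

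**Figure D2:**
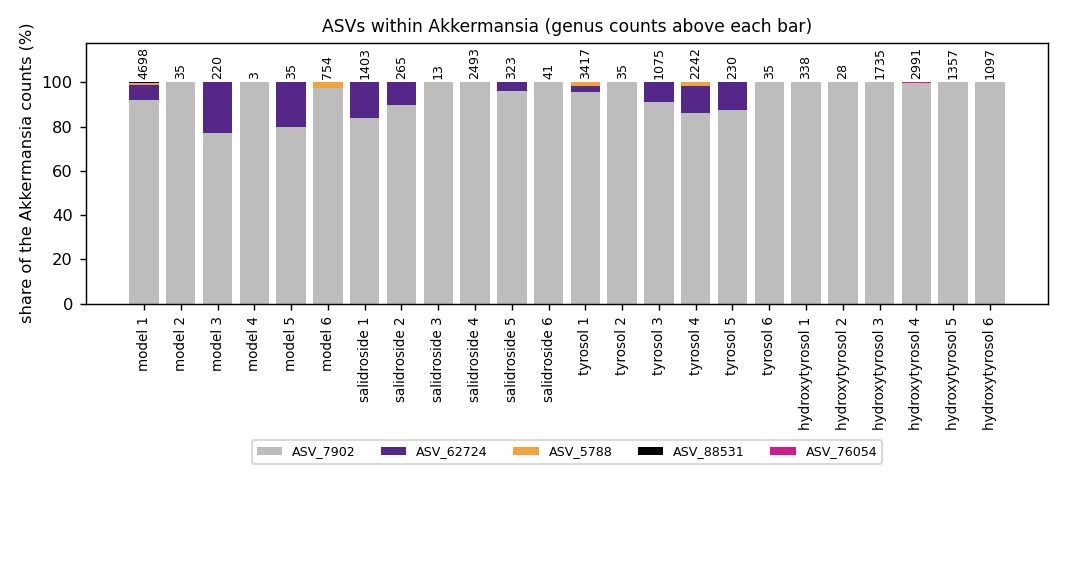
Composition of the Akkermansia counts of each fructose-fed mouse by ASV (% of the genus counts, with the number of genus counts above each bar). ASV_7902 held 77.3% to 100% in every mouse, and ASV_62724 was present in 10 mice and in none of the 6 hydroxytyrosol mice.

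Detection was read at an even depth, since a deeper library shows a rare genus more easily. The authors rarefied each library to 39768 counts, that is, drew that many reads at random. Akkermansia was still present in all 24 fructose-fed mice and in 0 of 6 control mice. The rarefied counts of mice 1 to 6 were 2145, 20, 82, 1, 19 and 288 in the model group. They were 745, 231, 6, 1139, 150 and 15 in the salidroside group. These counts keep the same low and high mice as the full libraries.

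In the tyrosol group, the rarefied counts were 1558, 14, 417, 833, 85 and 15, and in the hydroxytyrosol group 137, 16, 692, 1464, 636 and 513. The single count of model mouse 4 was the weakest detection. With its 3 counts, a draw of 39768 would miss the genus with a chance of 0.208, against 0.000626 or less in every other fructose-fed mouse. At 10000 counts, that chance would be 0.723 in model mouse 4 and 0.223 in salidroside mouse 3. It would be above 5% in these 2 mice only. The 5 ASVs were found in 24, 10, 4, 1 and 1 mice in the rarefied table, the same numbers as in the full libraries.

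Model mice were compared with control mice for the effect of the HFru diet. The share of Akkermansia was higher in all 36 pairings of model with control mice (two-sided exact permutation test, p = 0.0022, the smallest that 6 against 6 can give). Adjusted over the 10 pairs of groups, p was 0.00541. These pairings take the control mice at 0, and model mouse 4, with 3 counts, lay under the limit of each control mouse. Of the 97 genera tested, 3.09% had all model mice above all control mice, and 35.1% passed the exact test in either direction. Against the control limit of 3 counts per library, averaged over the 6 control mice, the model mean was at least 240.2-fold higher. Without model mouse 1, the model mean was 0.209% and the bound fell to at least 47.0-fold.

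The comparison was also made on counts with the quasi-likelihood test of edgeR, a count model fitted over all genera. Akkermansia passed it in model against control mice (edgeR, adjusted p = 0.000484), although it entered the test only through the model mice, since a genus needed 10 counts in 4 mice and the control mice had 0. In this comparison 17.5% of the genera were called, 7.22% as higher and 10.3% as lower. Since the control mice were at 0, the fitted fold change depends on the prior count and is not given.

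The treated groups also had shares above those of the control mice, in 36 of 36 pairs of mice each (exact permutation test, p = 0.0022 each, adjusted p = 0.00541). The share of genera with all mice above the control mice was 4.17% for salidroside, 15.7% for tyrosol and 11.5% for hydroxytyrosol, and 35.4%, 46.1% and 37.5% of the genera passed the exact test in either direction. The mean was at least 218-fold higher in the salidroside group, at least 271-fold higher in the tyrosol group and at least 321-fold higher in the hydroxytyrosol group. Without the highest mouse, these bounds were 131, 154 and 224. The 4 comparisons share the same 6 control mice.

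Each treated group was compared with the model group for an effect of the compound under the HFru diet. No difference was larger than the spread between mice. The mean share with salidroside differed from that of the model group by -0.0975 percentage points (exact permutation p = 0.911), and salidroside was higher in 22 of 36 pairs of mice. It was 0.135 points higher with tyrosol (exact permutation p = 0.853; 23 of 36 pairs). It was 0.357 points higher with hydroxytyrosol (exact permutation p = 0.714; 27 of 36 pairs). The adjusted p was 0.911 for all 3 comparisons. In these comparisons, 9.28%, 18.4% and 22.8% of the genera passed the exact test.

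Without model mouse 1, the hydroxytyrosol mean was 1.22 points above the model mean, and the exact permutation p was 0.0346, unadjusted. On the log2 scale, the same omission gave a difference of 3.63 (exact permutation p = 0.0476). The sign of the difference in means turned without hydroxytyrosol mouse 4 (-0.0730 points), with Acinetobacter left out of the totals (-0.453), with a list of 14 obligate aerobe genera left out (-0.559) and within the anaerobic gut orders described below (-0.692). The hydroxytyrosol comparison thus depended on single mice and on the denominator. The shares of the 2 groups overlapped with and without model mouse 1. With edgeR, Akkermansia had a log2 fold change of 0.21 (SE 1.43) for salidroside, 0.72 (SE 1.37) for tyrosol and 0.74 (SE 1.36) for hydroxytyrosol against model mice. The adjusted p was 0.984, 0.773 and 0.773, and 4.12%, 1.94% and 4.95% of the genera were called.

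Shares that span several orders of magnitude were also compared on the log2 scale, with 0.5 counts added, where 1 high mouse weighs less. The geometric mean was 0.127% in the model, 0.305% in the salidroside, 0.371% in the tyrosol and 0.741% in the hydroxytyrosol group. The SD was 3.73, 3.01, 2.91 and 2.35 log2 units. The geometric mean of the hydroxytyrosol group was 5.85-fold that of the model group (exact permutation p = 0.182), and its adjusted p over the 6 fructose-fed pairs was 0.629. Salidroside gave 2.41-fold (exact permutation p = 0.524) and tyrosol 2.93-fold (exact permutation p = 0.435). Across the 4 fructose-fed groups, the Kruskal-Wallis statistic was 1.86 (permutation p = 0.624, 24 mice), and across all 5 groups it was 15.3 (permutation p = 0.00093, 30 mice).

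The 3 compounds are close in structure. Salidroside is the glucoside of tyrosol, and hydroxytyrosol is tyrosol with a further hydroxyl group on its ring. The doses were set to be equal in moles, so the 3 pairs were compared as matched. The median ratio over pairs of mice (the Hodges-Lehmann estimate) was 0.828 for salidroside over tyrosol, with a 95.9% interval from 0.0448 to 15.0. The exact permutation p was 0.864. The glucoside and its aglycone therefore could not be told apart, and the interval leaves room for a difference of more than 10-fold in either direction.

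For hydroxytyrosol over tyrosol, the ratio was 1.49, with an interval from 0.166 to 39.8 (exact permutation p = 0.517). For salidroside over hydroxytyrosol, it was 0.427, with an interval from 0.0259 to 5.63 (exact permutation p = 0.426). The adjusted p over the 6 pairs was 0.629 for both, against 0.864 for salidroside and tyrosol. Against the model group, the intervals ran from 0.0681 to 75.7 for salidroside, from 0.155 to 66.4 for tyrosol and from 0.299 to 93.1 for hydroxytyrosol. Of the genera tested, 9.78% passed the exact test between salidroside and tyrosol, 15.6% between hydroxytyrosol and tyrosol and 7.87% between salidroside and hydroxytyrosol. Every interval included a ratio of 1, and none was narrow enough to show that the groups were alike.

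**Figure D3:**
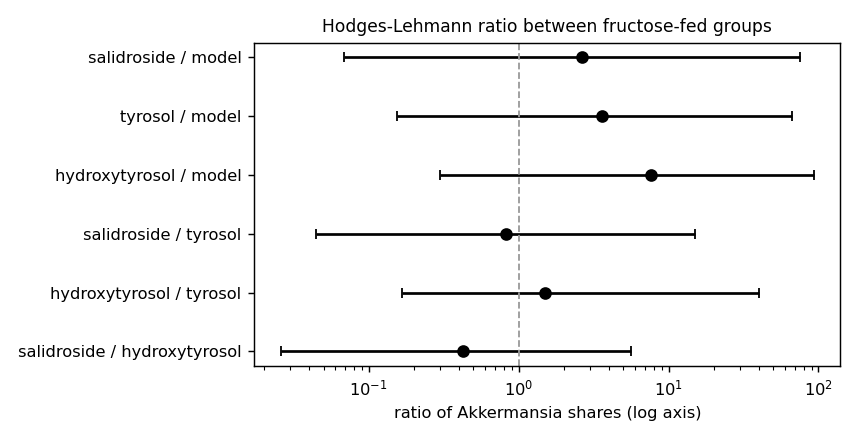
Ratio of Akkermansia shares between fructose-fed groups (log axis), as the Hodges-Lehmann estimate with its 95.9% interval from the exact rank-sum distribution, 6 mice per group. All 6 intervals cross 1 (dashed line), and the highest estimate is 7.69 for hydroxytyrosol over model.

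The part of other bacteria in the share of Akkermansia was not tested. Acinetobacter, an obligate aerobe of soil, water and skin, held a mean of 53.5% of the counts in model mice, against 20.5% in control, 32.4% in salidroside, 47.3% in tyrosol and 11.2% in hydroxytyrosol mice. The hydroxytyrosol mean was 4.62% without hydroxytyrosol mouse 2 (group median 2.44%), and the control mean was 13.6% without control mouse 6. The SD of Acinetobacter within a group was 17.5 to 30.3 points (n = 6 each), the groups overlapped, and edgeR called it in none of the 4 comparisons (adjusted p from 0.337 to 0.835). A list of 7 orders of anaerobic gut bacteria (Bacteroidales, Clostridiales, Verrucomicrobiales, Coriobacteriales, Bifidobacteriales, Erysipelotrichales and Deferribacterales) held 6.85% in model mice. It held 27.4% in control, 13.8% in salidroside, 13.1% in tyrosol and 17.5% in hydroxytyrosol mice. The model mean was 4.56% without model mouse 6. These are means with overlapping groups, and their differences were not tested. The share of Akkermansia was also taken within these orders.

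Within the anaerobic orders, Akkermansia held 8.83% ± 14.7 of the counts in model, 7.20% ± 8.48 in salidroside, 7.99% ± 7.58 in tyrosol and 8.14% ± 8.18 in hydroxytyrosol mice (SD, n = 6 each). The medians were 3.37%, 5.06%, 8.15% and 6.08%. Each of these means leaned on its highest mouse. The model mean was 2.87% without model mouse 1, the salidroside mean 4.08% without salidroside mouse 1 and the hydroxytyrosol mean 5.08% without hydroxytyrosol mouse 4, while the tyrosol mean was 6.23% without tyrosol mouse 1. On this scale the order of the group means and medians changed. The log2 difference of hydroxytyrosol from model mice was 0.46 within these orders, against 2.55 on the total. Those of salidroside and tyrosol turned from 1.27 and 1.55 to -0.11 and -0.18. The Kruskal-Wallis statistic across the 4 groups was 0.327 (permutation p = 0.960, 24 mice).

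Single mice kept wide differences within the anaerobic orders. Akkermansia held 38.7% of them in model mouse 1, 23.4% in hydroxytyrosol mouse 4 and 22.8% in salidroside mouse 1. It held 0.187% in tyrosol mouse 2, 0.323% in salidroside mouse 6 and 0.600% in model mouse 4. Model mouse 4 had only 500 counts from these orders in its whole library, and tyrosol mouse 2 had 18740.

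The absence of counts in control mice was less closely bounded on this scale. Control mice 1 and 6 had 1394 and 1231 counts from the anaerobic orders, which allow Akkermansia up to 0.215% and 0.244% of them. These limits lie above the 0.187% of tyrosol mouse 2. The other 4 control mice had 14609 or more such counts and allowed at most 0.0205%, under every fructose-fed mouse. With Acinetobacter left out of the totals, the mean shares of Akkermansia were 1.94% in model, 1.90% in salidroside, 2.69% in tyrosol and 1.48% in hydroxytyrosol mice. The model mean rested on mouse 1, at 9.31%, and was 0.463% without it, and the salidroside mean was 0.979% without salidroside mouse 1. The medians were 0.426%, 0.946%, 2.38% and 1.56%, and the log2 difference of hydroxytyrosol from model mice was 1.39.

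**Figure D4:**
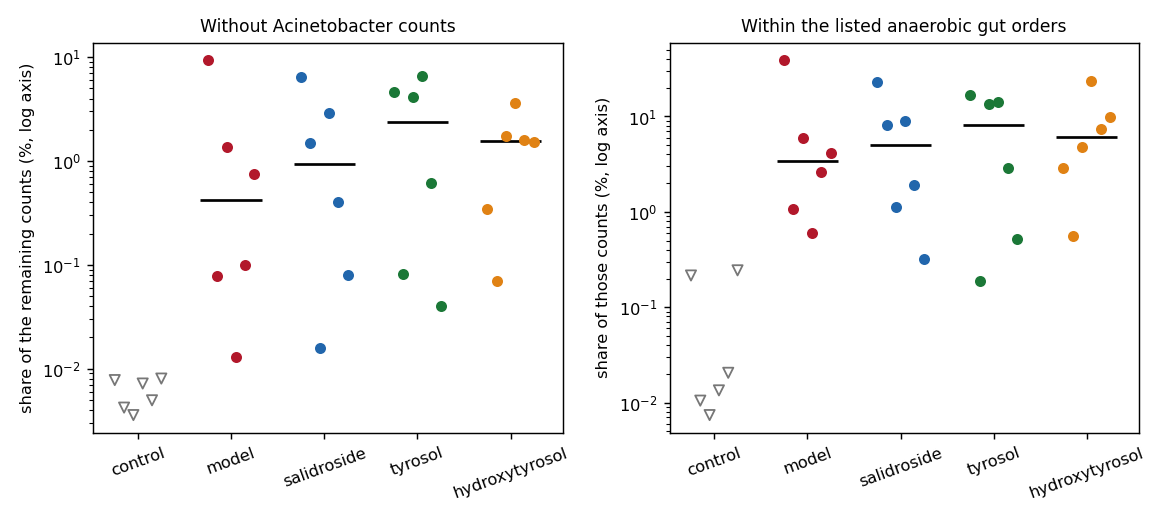
Share of Akkermansia in each mouse (%, log axes) among all counts other than Acinetobacter (left) and among the 7 listed anaerobic gut orders (right), with group medians as bars and control mice as open triangles at the limit of 3 counts. Within the anaerobic orders the medians of the fructose-fed groups lie between 3.37% and 8.15%, and the limits of 2 control mice lie above 0.2%.

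Akkermansia ranked 3rd among the named genera in model mouse 1 and in salidroside mouse 1, its highest rank in any mouse. The median rank was 25 in the model, 9 in the salidroside, 12 in the tyrosol and 10 in the hydroxytyrosol group. The lowest rank was 56, in model mouse 4. The genus was thus among the leading genera in some mice of each fructose-fed group and a rare one in others.

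A list of 9 genera known to live in mucus or to use mucin, Akkermansia among them, was counted. In model against control mice, 2 of the 9 were called higher by edgeR, 1 was called lower and 6 did not pass. Besides Akkermansia, 1 genus was called higher and 1 lower. The list's median log2 fold change was -0.056, against -0.24 over all 97 genera. The 3 calls compare with 17.5% of genera called in all, but they include Akkermansia itself and so are not independent support. The called genera were Akkermansia, [Ruminococcus], a genus with mucin-degrading members that held a mean of 2.53% in model and 0.0478% in control mice, and Prevotella. [Ruminococcus] had a log2 fold change of 5.69 (SE 1.90, edgeR adjusted p = 0.0298), and its medians were 0.245% and 0.0322%. Without the highest mouse of each group, its means were 0.266% and 0.0234%. Without model mouse 6 it was 2.43 and did not pass (edgeR adjusted p = 0.213), nor did it pass without any 1 of control mice 1 to 5 (edgeR adjusted p from 0.0546 to 0.0694).

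Prevotella, which ferments plant fibre and also mucin glycans, had a log2 fold change of -7.37 (SE 2.07, edgeR adjusted p = 0.0107). It held 0.433% in control and 0.00358% in model mice and kept its call without any single mouse. However, Prevotella entered the test mainly through the control mice, since the model mice held 20 counts of it, in 2 mice. The control median was 0.198%, and 4 of 6 model mice had 0 counts. Without the highest mouse of each group, the means were 0.278% and 0.000395%. Mucispirillum, a genus of the mucus layer named for it, did not pass (log2 fold change 4.38, SE 1.84, edgeR adjusted p = 0.0773). Its mean was 0.0104% in control and 0.462% in model mice. Without the highest mouse of each group, the means were 0.00389% and 0.194%. The medians were 0.00377% and 0.0219%. Bacteroides, Parabacteroides, Bifidobacterium, Helicobacter and Desulfovibrio had log2 fold changes between -2.91 and 0.30 and did not pass.

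Between treated and model mice, 0 of the listed genera were called by edgeR, DESeq2 or limma. At an unadjusted p under 0.05, edgeR gave 1 for salidroside, [Ruminococcus] with a log2 fold change of -3.54, and 0 for tyrosol and hydroxytyrosol. Among all genera tested, 12, 22 and 18 were under that unadjusted p for salidroside, tyrosol and hydroxytyrosol. After adjustment, edgeR called 4.12%, 1.94% and 4.95% of all genera tested. The list had 8 members tested for salidroside, 7 for tyrosol and 8 for hydroxytyrosol, the others being too sparse. The medians of the list were -0.74, -0.18 and -0.55 log2 units, against -0.37, -0.37 and -0.61 over all genera tested. Prevotella was at 0 in all salidroside and tyrosol mice and had 24 counts in the hydroxytyrosol group.

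The shares of other genera were ranked against that of Akkermansia over the 24 fructose-fed mice. Of 90 genera compared, Oscillospira (family Ruminococcaceae) had the highest Spearman rho at 0.67. Unidentified genera of Desulfovibrionaceae (0.63) and Rikenellaceae (0.58), Helicobacter (0.53) and an unidentified genus of S24-7 (0.52) followed. These are descriptions over mice that share a denominator, since all are shares of the same totals, and no p is given. For Oscillospira, rho was 1 in the model, 0.94 in the salidroside, 0.60 in the tyrosol and 0.49 in the hydroxytyrosol group, each over 6 mice. The other 4 did not all keep the sign within groups. The Spearman coefficient was -0.43 in the tyrosol group for Desulfovibrionaceae and -0.086 in the hydroxytyrosol group for Rikenellaceae, while Helicobacter and S24-7 were positive in all 4 groups.

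Unlike Akkermansia, Oscillospira, Helicobacter and the genera of Desulfovibrionaceae and S24-7 had counts in all 6 control mice, and the genus of Rikenellaceae in 5. The mean share of Oscillospira was 0.689% ± 0.645 in control, 0.310% ± 0.355 in model, 0.551% ± 0.434 in salidroside, 1.22% ± 0.406 in tyrosol and 1.05% ± 0.434 in hydroxytyrosol mice (SD, n = 6 each). Without model mouse 1, the model mean was 0.174%. It was listed at 0 in model mouse 4, the mouse with the fewest Akkermansia counts. At the other end, rho was -0.63 for an unidentified genus of Streptococcaceae, and it was negative within each of the 4 groups. Unclassified Bacilli (-0.46) and Allobaculum (-0.44) came next, and Acinetobacter had a rho of -0.32. Allobaculum was negative within all 4 groups, whereas unclassified Bacilli had a rho of 0.029 in the salidroside and hydroxytyrosol groups and Acinetobacter a rho of 0.26 in the tyrosol group.

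**Figure D5:**
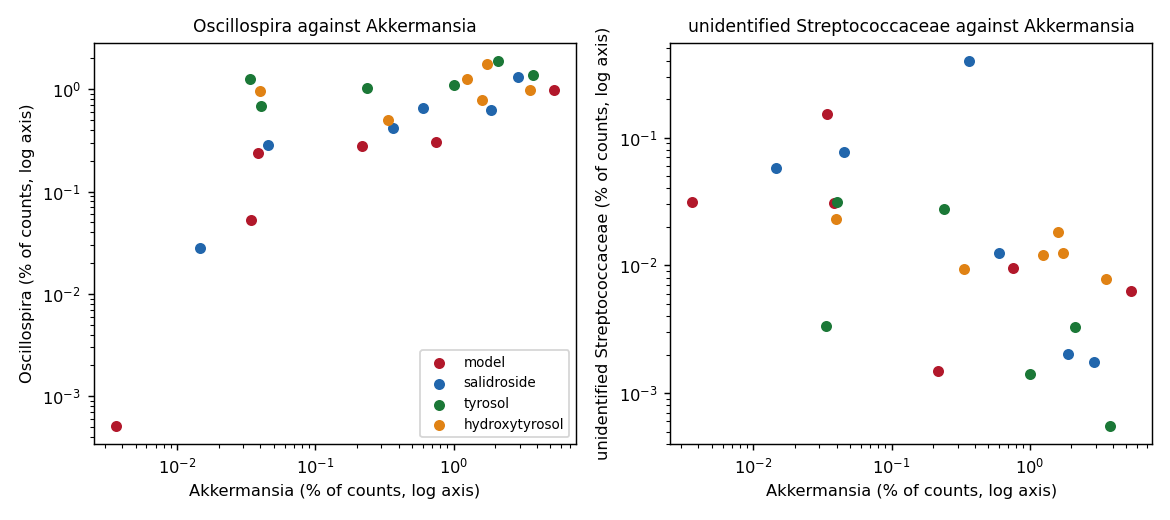
Shares of Oscillospira (left) and of the unidentified genus of Streptococcaceae (right) against the share of Akkermansia in the 24 fructose-fed mice (% of all counts with 0.5 counts added, log axes), with 1 point per mouse coloured by group. Spearman's rho is 0.67 on the left and -0.63 on the right, and the lowest point on the left is model mouse 4, where Oscillospira had 0 counts.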

How the data were processed

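The feces of 30 mice were analysed by 16S rRNA gene sequencing. Reads were merged (FLASH), quality filtered (QIIME) and freed of chimeras by the authors, who deposited raw counts per ASV with a taxon, without normalization, in 3 tables (unfiltered, filtered and rarefied). The authors' read log lists denoising, whereas the paper's methods describe grouping similar sequences into operational taxonomic units. The taxonomy database is not given in the sources used here. Groups came from the labels, and mouse numbers are those of the sample titles. The pioglitazone group of the study is not analysed here.

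ASVs of each genus were summed in the filtered table. Pairs of groups were compared by exact permutation tests of mean shares over 924 assignments, with the two-sided p taken as the doubled smaller tail. Kruskal-Wallis statistics had 100000 resamples. Counts per genus were compared with edgeR 4.0.16 (R 4.3.3) with TMM scaling. A genus needed 10 counts in 4 of the 12 mice compared, and the procedure was tested on simulated data. Adjusted p-values are Benjamini-Hochberg adjusted, with 0.05 as threshold. Intervals were computed with SciPy 1.17.1. In 75 pairs of mice within a group, 0 had identical counts. The genera named were Akkermansia, its ASVs with 1% of the genus counts or in 3 mice, the mucus list, the 5 genera most and 3 least alike in rank with at least 10 counts in 8 mice, and Acinetobacter. ASV_88531, ASV_76054 and DA101 were named after their counts were seen. The genus and all lists were chosen with earlier results of these data known. Nothing in the labels says whether mice shared a cage. The p-values take each mouse as independent, and they could be too small if cage mates were alike.

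The alternatives were the other tables, mean ranks, log2 shares, other pseudocounts, other denominators, no TMM, singleton pairing, DESeq2 1.42.0, centred log-ratios with limma 3.58.1, no filter, a stricter filter of 50 counts, a single model of all mice, the ASV level, a replicate block and leaving out each mouse. [Ruminococcus] and Prevotella under these settings were added after seeing the data.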

Additional observations from a re-analysis of the deposited data

Results flagged for a closer look

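The share of Akkermansia in model mouse 1 (5.36%) stood apart from the other 5 model mice, whose highest share was 0.751%. The gap to the nearest mouse was 0.860 of the range of the group, past Dixon's critical value for 6 values. On the log2 scale the same gap was 0.269 of the range and did not pass. The critical value is set for normally distributed values, which these skewed shares are not, so no rate of chance flags is given. Gaps were taken at both ends of each fructose-fed group on both scales, and only 1 passed.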

How the results depend on the processing

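The differences of all 4 fructose-fed groups from control mice kept direction and call under every alternative run, and the adjusted p for Akkermansia in model against control mice, over edgeR, DESeq2 and limma settings, ranged from 2.13e-10 to 0.0140. Since the control mice were at 0 in every table, the direction could not change in any run. The exact p stayed at its smallest possible value, so the share tests say nothing about stability. Akkermansia met the filters of the count models through the model mice alone, so the range of adjusted p is not independent support. With a minimum of 50 counts Akkermansia was not tested, since too few mice reached that minimum. The salidroside and tyrosol means fell to 0.581% without salidroside mouse 4 and to 0.685% without tyrosol mouse 1.

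No difference among fructose-fed groups had a stable direction on mean shares. Salidroside against model was -0.0975 points as reported, 1.33 in mean ranks, 1.27 in log2 shares and between -0.485 and 0.760 with single mice left out. Tyrosol against model was -0.844 within the anaerobic orders and between -0.381 and 0.993 with mice left out. Hydroxytyrosol against model was -0.453 without Acinetobacter, -0.559 without the listed aerobes, -0.692 within the anaerobic orders and between -0.0730 and 1.22 with mice left out, the last without model mouse 1 and past the threshold. Salidroside against tyrosol lay between -0.620 and 0.283 with mice left out. Hydroxytyrosol against tyrosol was -1.20 without Acinetobacter, -0.838 without aerobes and between -0.208 and 0.738 with mice left out. Salidroside against hydroxytyrosol was 0.414 without Acinetobacter and 0.226 without aerobes.

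On the log2 scale, the anaerobic orders gave -0.11 for salidroside and -0.18 for tyrosol against model and 0.065 for salidroside against tyrosol. With mice left out, the last ranged from -0.98 to 0.59, and hydroxytyrosol against model from 1.52 to 3.63. In edgeR, salidroside against model was -0.14 without TMM, -0.064 without the filter, -0.29 in the rarefied table, -0.65 for ASV_7902 alone and between -0.73 and 1.63 with mice left out. Tyrosol against model was -0.074 for ASV_7902 and between -0.33 and 2.18 with mice left out, and hydroxytyrosol against model lay between -0.081 and 2.09. The cause of these shifts was not tested.

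Genera called by edgeR numbered 17 for model against control (11 to 38 under other settings or tools, 10 to 34 with a mouse left out), 4 for salidroside (1 to 11, 2 to 4), 2 for tyrosol (1 to 12, 2 to 5) and 5 for hydroxytyrosol against model (3 to 19, 1 to 11).

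The labels do not say that replicate numbers pair the mice, and groups of 6 mice are too small to exclude it. Deviations of same-numbered mice correlated between -0.27 and 0.44 over 6 pairs of groups, above 0.1 in 2. With the replicate number as a block, the share in each fructose-fed group against control gave p = 0.03125 by exact permutation, the smallest possible. The block gave 11, 1, 1 and 3 called genera, and [Ruminococcus] did not pass (edgeR adjusted p = 0.0750).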
